A study of Mus musculus with 5 samples.

Results

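The MYC and MAX network is a family of basic helix-loop-helix leucine zipper transcription factors, and 9 of its genes were examined here: Myc, Mycn, Max, Mxd1, Mxi1, Mxd3, Mxd4, Mnt and Mlx. They were chosen by symbol, as all probe sets of the array table that the platform annotation assigns to these genes, which gave 21 of 45101 probe sets and 9 of 18193 genes. The material was 32D, a murine myeloid progenitor line that normally grows on interleukin-3. The cells carried 1 of 5 retroviral FLT3-ITD constructs, which the labels name ITD613, ITD78, ITD598, ITD602 and ITD611, and an internal tandem duplication (ITD) makes the receptor tyrosine kinase FLT3 signal without its ligand. All 5 lines shared 3 h of starvation and 1 h with a tyrosine kinase inhibitor that the labels do not name, so every value below is from inhibitor-exposed cells, and no array of cells without a construct or without inhibitor was analysed here. Each construct had 1 array, and the labels do not say whether a line was a clone or a pool.

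MYC binds DNA as a dimer with MAX at the E-box sequence CACGTG and promotes growth, ribosome production and metabolism. The MXD proteins (the products of Mxd1, Mxi1, Mxd3 and Mxd4) and MNT compete for the same partner and the same sequence and recruit SIN3 corepressor complexes, which is why they are called MYC antagonists. MLX is a second shared partner that pairs with some MXD proteins, with MNT and with the glucose-responsive factors MondoA and ChREBP. In blood cells MYC is typical of dividing progenitors, while MXD genes are known to be induced as cells mature.

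The E-box also occurs near the start sites of some of the network's own genes. RefSeq start-site windows of the build GRCm38.p6 spanned 300 bases, 250 before to 50 after a start. They were matched for 8 of the 9 genes, Mxi1 with several starts, and none was matched for Myc. The windows were searched for CACGTG, which reads the same on both strands. It was present in the windows of Max, Mlx, Mxd4 and Mnt, and in 7.15% of all 32851 windows. These 4 windows are shown because they carry the sequence that all members of the network bind. Each runs 5′ to 3′ on the strand of its gene, and the capitals mark the E-box, which begins at base 248 of the window in Max, 211 in Mlx, 32 in Mxd4 and 128 in Mnt.
Max promoter, chr12:76962199-76962498, minus strand: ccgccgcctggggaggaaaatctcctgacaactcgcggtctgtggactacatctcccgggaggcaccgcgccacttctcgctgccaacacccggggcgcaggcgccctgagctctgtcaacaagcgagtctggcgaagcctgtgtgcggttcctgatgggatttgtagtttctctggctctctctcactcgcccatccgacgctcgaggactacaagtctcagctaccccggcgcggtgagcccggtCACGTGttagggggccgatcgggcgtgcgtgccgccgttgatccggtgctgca
Mlx promoter, chr11:101087040-101087339, plus strand: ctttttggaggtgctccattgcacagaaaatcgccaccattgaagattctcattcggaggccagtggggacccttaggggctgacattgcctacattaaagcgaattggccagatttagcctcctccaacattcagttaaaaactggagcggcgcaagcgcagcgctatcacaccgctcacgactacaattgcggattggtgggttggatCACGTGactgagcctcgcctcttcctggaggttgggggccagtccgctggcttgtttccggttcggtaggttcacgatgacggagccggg
Mxd4 promoter, chr5:34187661-34187960, minus strand: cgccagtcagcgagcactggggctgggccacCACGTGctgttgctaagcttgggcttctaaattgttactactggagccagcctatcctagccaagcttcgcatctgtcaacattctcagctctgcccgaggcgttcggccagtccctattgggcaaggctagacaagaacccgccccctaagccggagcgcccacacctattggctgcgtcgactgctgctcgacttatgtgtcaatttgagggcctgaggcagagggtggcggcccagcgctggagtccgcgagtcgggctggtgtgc
Mnt promoter, chr11:74830674-74830973, plus strand: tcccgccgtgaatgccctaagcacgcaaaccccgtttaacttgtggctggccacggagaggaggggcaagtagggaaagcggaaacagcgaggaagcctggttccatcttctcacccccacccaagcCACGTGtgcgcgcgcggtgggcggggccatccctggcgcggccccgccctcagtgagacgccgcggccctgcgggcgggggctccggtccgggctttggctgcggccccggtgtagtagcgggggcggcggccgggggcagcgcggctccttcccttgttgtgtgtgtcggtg
A match describes the letters of the window and not a bound site. The E2F motif TTTGGCGC, searched on both strands, was in the window of Mycn only among the members (0.514% of all windows) and occurred there at bases 68 and 83. The FOXO motif GTAAACA was in 1 window of Mxi1 (3.65% of all windows). The STAT motif TTCNNNGAA (8.30% of all windows) and the GATA motif AGATAA (11.2%) were in no member's window. Myc had no window, so none of these motifs was sought at its start site.

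The values are log2 RMA values, 1 per probe set and array, and a difference of 1 is 2-fold. With 1 array per construct no difference could be tested, so the text holds no p-value and gives sizes only. A gene is represented by the probe set with the highest mean, and an SD is that of the other 4 constructs and not of replicates. For scale, the closest pair of arrays (ITD598 and ITD611) differed with an SD of 0.18 over the 9621 genes that passed the low-value filter, which kept a gene whose highest value reached 2.75. All 9 members passed it and were above it on all 5 arrays. Low values are tied: between 23.7% and 30.3% of an array's values were identical in 100 or more probe sets, and such ties reached up to 3.74. Differences below that level cannot be sized. The question about the ITD613 array was selected on these same log2 values, so the comparison of the members on it is a description.

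The arrays differed in other ways that the constructs cannot be separated from. The ITD602 array has another date-like string in its title, and its spiked-in bioB control averaged 5.96, against 2.23 to 2.82 on the other arrays. The log2 difference between 3′ and 5′ actin probe sets, a sign of RNA quality, was 1.41 on ITD613, 1.20 on ITD78, 1.25 on ITD598, 1.19 on ITD602 and 1.56 on ITD611. The same difference for Gapdh was 0.56 on ITD613, against 0.59 on ITD611 and 0.30 to 0.34 on the other 3, and the part of RNA quality in the results was not tested. Of 9 blood progenitor genes 7 passed the filter, with Kit and Cd34 below it, while 1 of 5 lymphoid and 1 of 7 fibroblast and epithelial genes with a probe set passed.

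Myc, which encodes the network's main activator, read higher on the ITD613 array than on any other. Its single probe set read 8.34 on ITD613, against 7.47 on ITD78, 7.41 on ITD598, 7.37 on ITD602 and 7.44 on ITD611. The other 4 constructs lay within 0.10 of each other, and ITD613 lay 0.87 above the nearest of them (1.83-fold). ITD613 lay 0.91 above their mean (7.42 ± 0.04, SD, n = 4 arrays), or 1.88-fold, and 3.96% of the 9621 genes had a larger positive difference. Myc thus fell short of 2-fold above each other array, as did every other member (0 of 9, where 1.31% of all genes reached it). At 1.5-fold, on the probe sets that stand for the genes, Myc alone of the members was above each other array, as were 5.24% of all genes. Of the other member probe sets, 1 of Mycn (1.91-fold above the nearest array) and 1 of Mxd3 (1.55-fold), both described below, also passed 1.5-fold.

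Mycn, which encodes the related activator N-MYC, gave answers that depended on the probe set. The brightest probe set (1425923_at) read 11.51 on ITD613, against 10.75 on ITD78, 11.83 on ITD598, 11.56 on ITD602 and 11.50 on ITD611. On it ITD78 was the lowest array and ITD613 lay among the others, 0.10 above their mean. A second probe set (1417155_at) read 6.48 on ITD613, against 5.55 on ITD78, 4.38 on ITD598, 5.23 on ITD602 and 5.22 on ITD611. Here ITD613 was the highest, 0.93 above ITD78, and 1.39 (2.62-fold) above the mean of the other 4. The third (1425922_a_at) read 2.35 to 2.62 throughout, below the filter. The order of ITD78 and ITD598 was opposite on the 2 probe sets that passed, so no single direction can be given for Mycn.

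Max, whose product is the shared partner of MYC and its antagonists, read 4.39 on ITD613, against 3.77 on ITD78, 3.66 on ITD598, 3.91 on ITD602 and 4.19 on ITD611. ITD613 was the highest but lay only 0.20 above ITD611, little more than the 0.18 of the closest pair of arrays. The ITD598 value was itself one that many probe sets shared, and the mean of the other 4 was 3.88 ± 0.23 (SD, n = 4 arrays).

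**Figure D1:**
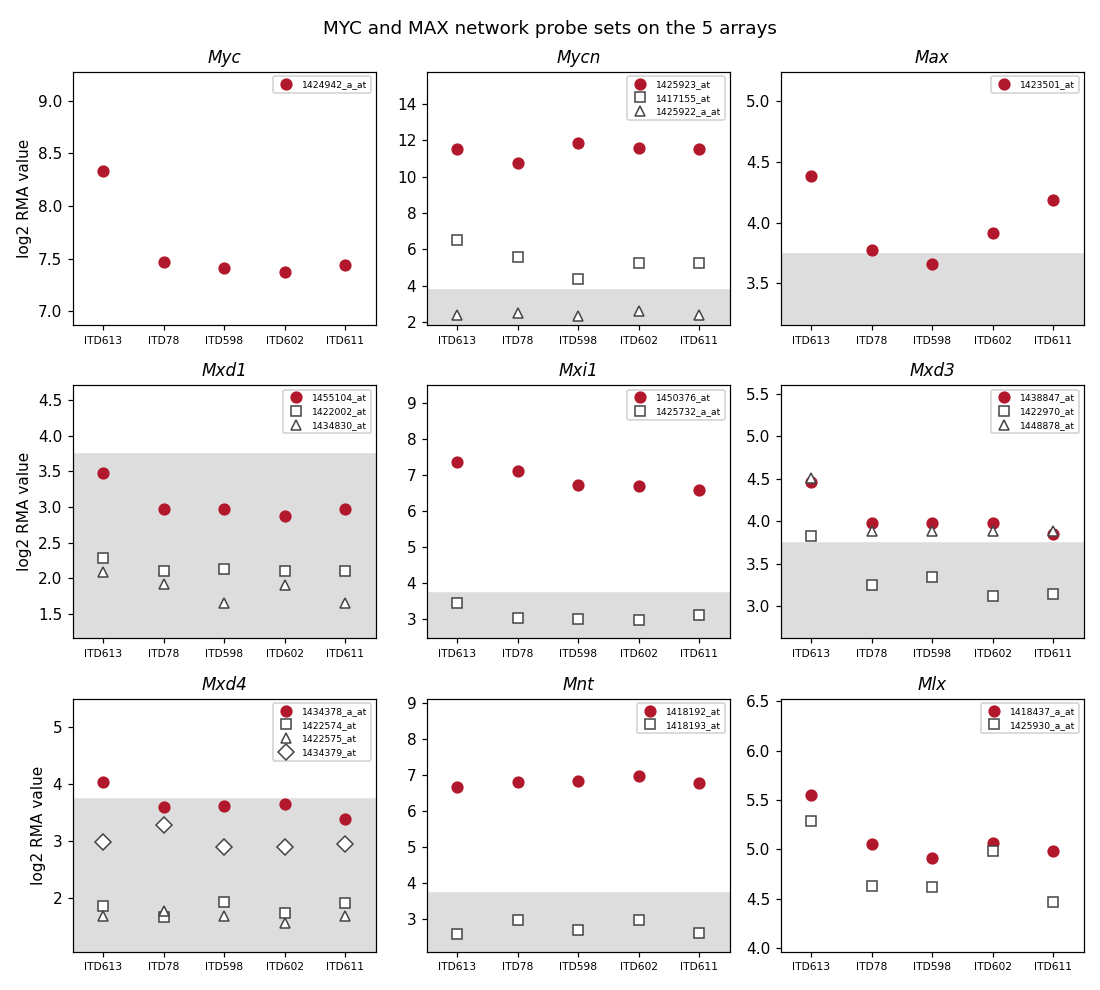
Log2 RMA value of each probe set (y axis) on each array (x axis) for the 9 network genes; y ranges differ between panels. Filled red points are the probe set that stands for the gene, open symbols its other probe sets, and grey marks values below 3.74, where many probe sets share 1 value. Myc, Mxi1, Mxd3 and Mlx read highest on ITD613 on every probe set shown, and Mnt reads lowest there.

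Of the 5 antagonist genes, 4 read higher on the ITD613 array than on each other array and 1, Mnt, read lower, where 35.7% of all genes were highest and 29.4% lowest on ITD613. Set against the average of the other 4, the median difference was 0.52 over the 5 antagonists and 0.01 over all genes. With low values raised to 3.74 it was 0.28, and 3 of the 5 were highest on ITD613. Because the antagonists were asked about with these values known, their count supports nothing beyond this description.

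Mxi1, which encodes the SIN3-recruiting repressor MXI1, was highest on ITD613 on both of its probe sets. The brighter one read 7.35 on ITD613, against 7.12 on ITD78, 6.71 on ITD598, 6.71 on ITD602 and 6.59 on ITD611. ITD613 and ITD78 were both above the other 3 arrays, and ITD613 lay 0.23 above ITD78. The difference from the mean of the other 4 (6.78 ± 0.23, SD, n = 4 arrays) was 0.57, or 1.48-fold. The second Mxi1 probe set read 3.46 on ITD613, against 2.97 to 3.13 on the other arrays, in the low range. For Myc, by contrast, ITD78 lay within 0.10 of the remaining constructs.

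Mxd3, the MXD family member known to be expressed in dividing cells, was higher on ITD613 on all 3 of its probe sets. The probe set that stands for it (1438847_at) read 4.46 on ITD613, against 3.98 on ITD78, 3.98 on ITD598, 3.98 on ITD602 and 3.85 on ITD611. A second (1448878_at) read 4.51 on ITD613, against 3.88 on each of the other 4 arrays. The third (1422970_at) read 3.83 on ITD613, against 3.12 to 3.34 on the others. The differences from the mean of the other 4 were 0.52, 0.63 and 0.62. Several of the lower values were shared with other probe sets of the same array (27, 80 and 94 probe sets held the value 3.98 on ITD78, ITD598 and ITD602). The higher value 4.46 was itself held by 60 probe sets of the ITD613 array, so smaller ties also occur above 3.74. These differences thus have an uncertain size although their direction was the same 3 times.

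Mxd4 and Mxd1, which encode further MAX-binding repressors, lay near or below the shared level. Mxd4 read 4.02 on ITD613, against 3.60 on ITD78, 3.61 on ITD598, 3.64 on ITD602 and 3.37 on ITD611, which is 0.46 above the average of the other 4 (3.56 ± 0.12, SD, n = 4 arrays). None of its other 3 probe sets was highest on ITD613, and the brightest of them read 2.98 there, against 3.28 on ITD78. Mxd1, known for its induction in maturing granulocytes, read 3.47 on ITD613, against 2.97 on ITD78, 2.97 on ITD598, 2.88 on ITD602 and 2.97 on ITD611. All 3 Mxd1 probe sets were highest on ITD613, but none reached 3.74 on any array, and 135 probe sets of the ITD613 array shared the value 3.47. With low values raised to 3.74 the Mxd1 difference was 0, and that of Mxd4 was 0.28.

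Mnt, which encodes a MAX-binding repressor that is present in most cells, read 6.68 on ITD613, against 6.83 on ITD78, 6.84 on ITD598, 6.99 on ITD602 and 6.79 on ITD611. ITD613 was the lowest array, by 0.11 from ITD611, and differed by -0.18 from the average of the others (6.86 ± 0.09, SD, n = 4 arrays), little more than the SD between the closest arrays. The second Mnt probe set was also lowest on ITD613 (2.60, against 2.63 to 2.97), within the low range.

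**Figure D2:**
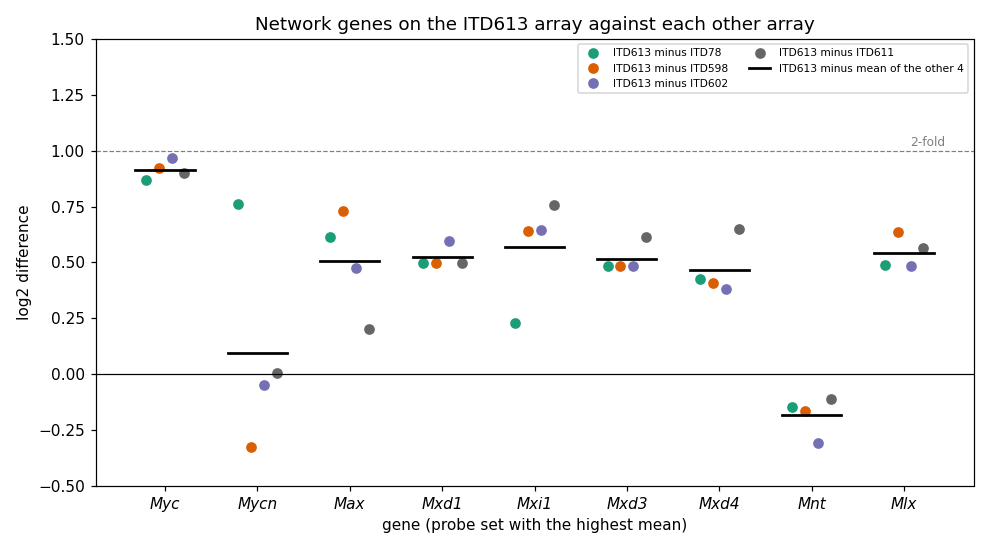
Log2 difference of the ITD613 array from each of the other 4 arrays (y axis, coloured points) and from their mean (black bars) for the probe set that stands for each gene (x axis); the dashed line is 2-fold. Myc has 4 differences close together between 0.87 and 0.97, the 4 MXD family genes lie between 0.23 and 0.76, and the 4 Mnt points lie below 0.

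Mlx, whose product is the second shared partner, read 5.55 on ITD613, against 5.05 on ITD78, 4.91 on ITD598, 5.06 on ITD602 and 4.98 on ITD611. The other 4 constructs were close together (5.00 ± 0.07, SD, n = 4 arrays), and ITD613 lay 0.48 above the nearest and 0.54 above their mean. Its second probe set was likewise highest on ITD613 (5.29, against 4.46 to 4.98). The gene of its partner MondoA and the MondoA targets that passed the filter read lower on ITD613. Mlxip, which encodes MondoA, read 5.04 on ITD613, against 5.32 ± 0.16 on the other 4 (SD, n = 4 arrays). Txnip, the glucose-regulated inhibitor of thioredoxin and a MondoA target, read 6.14 on ITD613, against 6.92 ± 0.15, and the target Klf10 read 4.70, against 5.04 ± 0.30 (SD, n = 4 arrays each). Both targets that passed the filter were lowest on ITD613, where 29.4% of all genes were, and Arrdc4 and the ChREBP gene Mlxipl did not pass it. Klf10 on ITD613 lay only 0.08 below ITD602, and Mlxip only 0.13 below ITD78, both less than the 0.18 of the closest pair of arrays.

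By gene, 7 of the 9 members were highest on ITD613 (Myc, Max, Mxd1, Mxi1, Mxd3, Mxd4 and Mlx), 1 was lowest and Mycn lay between. Among all genes 35.7% were highest and 29.4% lowest there. With low values raised to 3.74, Mxd1 was no longer highest. By probe set, 12 of the 16 that passed the filter were highest on ITD613 and 2 were lowest, where 32.9% and 31.2% of all probe sets passing it were. Of the 9 probe sets with every value at or above 3.74, 7 were highest on ITD613: those of Myc, Mxi1 and the second of Mycn, both of Mlx, and 2 of Mxd3. The share among all probe sets with every value at or above 3.74 was not computed, so this count has nothing to be set against. A larger positive difference was found in 10.3% of all genes for Mxi1, 11.0% for Mlx, 11.9% for Mxd3 and 12.4% for Max. Genes below the other arrays' mean are not counted in these shares. No such share is given for Mxd1 and Mxd4, whose values lie in or near the tied range. For Mnt 26.6% of the genes had a lower difference.

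The lowest value of 8 of the 9 members lay on one of the other 4 arrays, and the highest value of Mnt and Mycn. ITD602 was highest for Mnt (29.5% of all genes were highest there) and lowest for Myc and Mxd1 (17.3%). ITD611 was lowest for the antagonists Mxi1, Mxd3 and Mxd4 (3 of 9 members, where 17.8% of all genes were lowest on ITD611) and highest for none (8.33%). ITD78 was lowest for Mycn on its brightest probe set (17.5%). ITD598 was highest for Mycn on that probe set (10.7%) and lowest for Max and Mlx (12.4%). The Myc values of these 4 arrays spanned only 0.10, and the distances between them were within the SD of the closest pair.

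Genes known to be induced by MYC read lower on ITD613, the array on which Myc itself read higher. Of 43 genes listed as induced by MYC, 42 were on the array and 41 of these passed the filter. Of these 41, 35 were lowest on the ITD613 array and 3 were highest (29.4% and 35.7% of all genes were), and their median difference was -0.38, beside 0.01 over all genes. The median difference was -0.24 against ITD78, -0.39 against ITD598, -0.46 against ITD602 and -0.43 against ITD611. Wdr43, a ribosome assembly factor, read 7.44 on ITD613, against 8.46 ± 0.09 on the other 4 arrays, and Shmt2, the mitochondrial serine hydroxymethyltransferase, read 6.71, against 7.58 ± 0.18 (SD, n = 4 arrays each). Ccnd2, a D-type cyclin, read 8.46 on ITD613, against 9.23 ± 0.14 (SD, n = 4 arrays). Only Wdr43 was 2-fold below that mean, as were 2.35% of all genes. E2f2, an activating E2F factor, went the other way and read 7.60 on ITD613, 6.79 on ITD78 and 5.60 to 5.86 on the other 3 arrays. The other 2 that were highest, named after their values were seen, were Tfrc, the transferrin receptor gene, and Pcna, the replication clamp gene (differences of 0.42 and 0.25). Arrays measure RNA only, so nothing here bears on the amount of MYC or MXD protein.

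**Figure D3:**
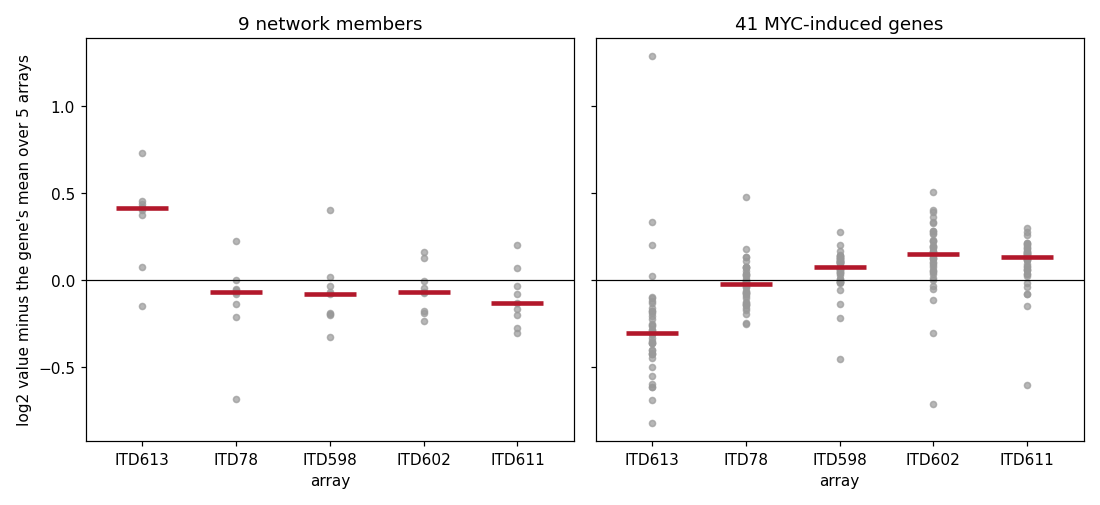
Log2 value of each gene minus that gene's own mean over the 5 arrays (y axis) on each array (x axis), for the 9 network members (left) and the 41 MYC-induced genes that passed the filter (right); each grey point is a gene and red bars are medians. On ITD613 the median is 0.41 for the members and -0.30 for the MYC-induced genes, while on the other 4 arrays the medians lie between -0.13 and 0.15.

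Of 9 genes listed as repressed by MYC, 6 passed the filter. Of these, 5 were highest on ITD613 and 1 was lowest (35.7% and 29.4% of all genes were), and their median difference was 0.85 (0.49 over all 9). Thbs1 (thrombospondin-1) read 5.67 on ITD613, against 4.35 on ITD78, 2.21 on ITD598, 2.12 on ITD602 and 2.65 on ITD611. The last 3 values are in the low range, while ITD78 is not. Gadd45a, a growth arrest gene, read 5.85 on ITD613, against 4.42 ± 0.54 on the other 4, and Cdkn2c, a cyclin-dependent kinase inhibitor gene, read 8.16, against 7.15 ± 0.26 (SD, n = 4 arrays each). These 3 were at least 2-fold above the mean of the other 4, as were 3.18% of all genes. Ndrg1, whose name records its repression by N-MYC, was the exception and read 5.32 on ITD613, against 6.69 ± 0.17 (SD, n = 4 arrays). Ndrg1 is also a hypoxia-induced gene.

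The corepressor genes through which MXD proteins act went both ways. Of the 14 SIN3 and NCOR corepressor genes listed, 12 passed the filter. Of these, 6 were highest and 6 lowest on ITD613, where 35.7% and 29.4% of all genes were, and the median difference was 0.0048. Arid4a, a SIN3-associated chromatin gene, was the only one 2-fold higher and read 5.77 on ITD613, against 4.55 ± 0.24 on the other 4 (SD, n = 4 arrays). Ing2 and Sap30, which encode SIN3 complex subunits, read 6.41 and 7.24 on ITD613, against 6.87 ± 0.04 and 7.67 ± 0.19 (SD, n = 4 arrays each). The 8 other bHLH-zipper and E-box-binding genes that passed the filter had a median of -0.18, with 2 highest and 4 lowest on ITD613 (35.7% and 29.4% of all genes were). Mitf, a factor of mast cells and macrophages in blood, read 1.90 on ITD613 and 1.79 on ITD78, against 3.75, 4.11 and 3.75 on ITD598, ITD602 and ITD611. Its ITD613 and ITD78 values are in the low range, and those on ITD598 and ITD611 lie just above 3.74. The Mitf difference therefore has an uncertain size. Usf2, a widely expressed E-box binder, read 5.34 on ITD613, against 5.73 ± 0.16 (SD, n = 4 arrays).

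Of the 13 regulators of Myc transcription that passed the filter, 8 were highest and 3 lowest on ITD613, where 35.7% and 29.4% of all genes were, with a median difference of 0.25. Stat5a and Stat5b, which encode the STAT5 proteins activated by FLT3-ITD and by interleukin-3, read 4.89 and 6.28 on ITD613, 4.07 and 5.65 on ITD78, and 3.34 to 3.66 and 5.10 to 5.50 on the other 3 arrays. The Stat5a values on those 3 arrays lie below 3.74, in the low range. Myb, a progenitor transcription factor gene known to activate Myc, read 9.91 on ITD613, against 9.11 ± 0.18 on the other 4 (SD, n = 4 arrays), unlike most of the blood progenitor genes described below. Cnbp, a nucleic acid-binding protein gene, read 10.45 on ITD613, against 11.03 ± 0.05 (SD, n = 4 arrays). Pvt1, the long noncoding RNA gene next to Myc, was named after its values were seen. It read 4.92 on ITD613, against 4.27 on ITD78, 4.25 on ITD598, 4.46 on ITD602 and 4.81 on ITD611, so that ITD611 was within 0.11 of ITD613, unlike for Myc.

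**Figure D4:**
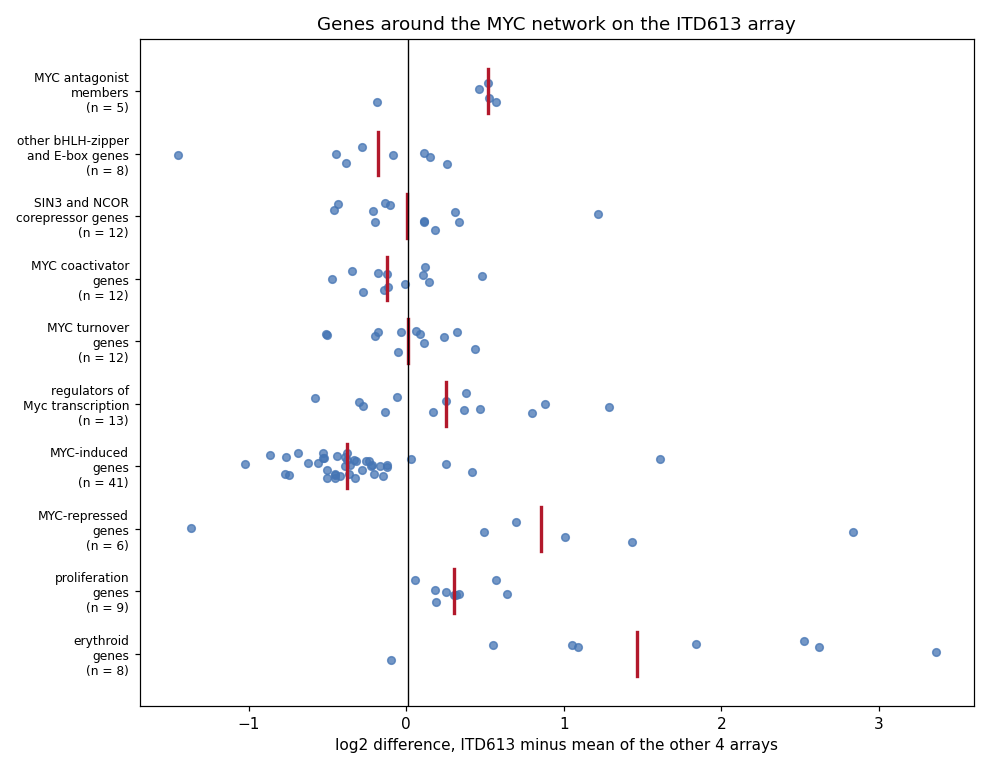
Log2 difference of ITD613 from the mean of the other 4 arrays (x axis) for the genes that passed the filter in each list (rows); each point is a gene, red bars are list medians and the vertical line is the median of all 9621 genes (0.01). The MYC-induced genes lie mostly left of the line (median -0.38), and the antagonists other than Mnt lie right of it.

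Lineage and proliferation genes also differed between ITD613 and the other arrays. Beside the counts that follow, 35.7% of all genes were highest and 29.4% lowest on ITD613. Of the 9 blood progenitor genes 7 passed the filter, 5 of these were lowest and 2 highest on ITD613, and their median difference was -1.08. Csf2rb2 and Csf2rb, which encode beta chains of the interleukin-3 receptor, read 5.12 and 6.71 on ITD613, against means of 7.06 ± 1.00 and 7.97 ± 0.69 on the other 4 arrays (SD, n = 4 arrays each), of which ITD78 was the lowest for both. Ptprc, the gene of the leukocyte antigen CD45, read 7.41 on ITD613, against 8.80 ± 0.33, and Runx1, a blood transcription factor gene, read 4.03, against 5.12 ± 0.24 (SD, n = 4 arrays each). Each of these 4 lay 2-fold or more under the average of the other constructs, as did 2.35% of all genes. The 2 that were highest were Myb, described above, and Il3ra (0.09 above the mean of the others), which was named after its value was seen and lies below 3.74 on every array. Of the 10 erythroid genes with a probe set, 8 passed the filter and 7 of these were highest on ITD613, while Alas2 and Hba-a1 were below the filter. The mean log2 value over the 10 was 6.09 on ITD613, 5.45 on ITD78 and 4.45 to 4.65 on the other 3 arrays. Mxi1 likewise had ITD78 between ITD613 and the other 3, while Myc on ITD78 was close to the other 3. Klf1 and Gata1, transcription factor genes of red cell development, read 10.01 and 8.14 on ITD613, against 7.39 ± 0.75 and 6.30 ± 0.51 on the other 4 (SD, n = 4 arrays each). Of the 8 monocyte and macrophage genes 5 passed the filter, and 3 of these were lowest and none was highest on ITD613. The mean over all 8 was 2.63 on ITD613, 2.87 on ITD78 and 3.66 to 3.97 on the other 3 arrays. This mean includes genes that did not pass. Its ITD613 and ITD78 values lie below 3.74, so the difference has an uncertain size. The mean of the 11 granulocyte genes was 4.28 on ITD613, against 3.52 on ITD78 and 5.50, 5.16 and 4.26 on ITD598, ITD602 and ITD611, and none was highest on ITD613. Only 8 of the 11 passed the filter, and the ITD78 mean lies below 3.74. Of these 8 granulocyte genes 2 were lowest on ITD613, and 4 lay above and 4 below the mean of the other 4 arrays, so they went both ways. Of the 9 proliferation genes with a probe set, 8 were highest on ITD613, where 35.7% of all genes were, with a median difference of 0.30. Mki67, the gene of the Ki-67 antigen, differed most (10.56, against 9.92 ± 0.22, SD, n = 4 arrays). The part of these lineage and proliferation differences in the network's values was not tested, and in bulk RNA more cells of a type and more RNA per cell cannot be told apart.

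The genes whose pattern over the 5 arrays was most like that of Myc were sought among the 999 genes that passed the filter and ranged at least 2-fold. The range of Myc itself was 0.97, just under this cut. Genes ranging as little as Myc were therefore not searched, and some of them may be closer to it than those named. The measure was the root mean square difference between profiles, each centred on its own mean. The closest were B230219D22Rik (0.042), Tmem107, a gene of the ciliary transition zone (0.046), Hexdc, a hexosaminidase gene (0.047), Kdm5b, which encodes a histone H3 lysine demethylase (0.049), and Stxbp5, a syntaxin-binding protein gene (0.050). All values of Hexdc lie below 3.74, so its likeness cannot be judged. Kdm5b read 6.19 on ITD613, against 5.23 on ITD78, 5.13 on ITD598, 5.10 on ITD602 and 5.16 on ITD611, which repeats the single high array of Myc. Mycn had the widest range of the members on its brightest probe set. Its closest genes were S100a4 (0.069), Rph3al (0.10), Otulinl (0.16), Anxa3 (0.17) and Rab27a (0.20), of which Rph3al lies wholly and Otulinl partly below 3.74. S100a4, a calcium-binding protein gene of the S100 family, read 9.29 on ITD613, 8.70 on ITD78, 9.79 on ITD598, 9.54 on ITD602 and 9.42 on ITD611.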

How the data were processed

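RNA of 32D cells was measured on 5 Affymetrix mouse expression arrays, 1 per FLT3-ITD construct. Per the submitters' processing notes, the authors made the deposited log2 values with RMA, which corrects background, normalizes between arrays and summarises each probe set. Its version was not given in the sources used here, and log2 was inferred from the range of values (-0.07 to 13.45). The platform annotation gave 1 symbol for 34945 of 45101 probe sets, several for 932 and none for 9160, besides 64 controls. The controls stood for no gene, but they gave the bioB, actin and Gapdh values and were included in the percentile below. RefSeq held the gene IDs of 34741 of the probe sets with 1 symbol. The probe set with the highest mean stood for a gene, and genes whose highest value reached the 60th percentile of all values (2.75) were kept (9621). No test was possible with 1 array per construct, and the number of arrays limits the precision. Python 3.11.15, numpy 2.4.6 and pandas 2.3.3 were used.

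The members, the 15 gene lists (182 genes, from textbook knowledge) and the comparison were chosen with earlier results of these data known. All 9 members are named. Per list up to 4 genes passing the filter with the largest absolute difference of ITD613 from the mean of the other 4 arrays could be named. For Myc and the member with the widest range, the 5 genes most like it among those ranging at least 2-fold were named. Other named genes are said to be so. Alternatives changed the probe set rule, the low values, the filter, the scaling, the fold and the arrays compared.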

Additional observations from a re-analysis of the deposited data

How the results depend on the processing

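The Myc difference on ITD613 ran from 0.89 to 0.93 over 11 alternative settings. Most of these could not change the place of ITD613 as the highest array for Myc. Leaving out another array cannot unseat the highest or lowest array of the same probe set. The probe set, low-value and filter settings left the Myc values unchanged. With arrays centred on their median or quantile normalized, Myc stayed highest on ITD613. Max, Mxi1, Mxd3 and Mlx stayed highest and Mnt lowest on ITD613 in all 10 settings that counted places, and Mxd4 in the 9 that gave it a value. Most of these settings could not have changed these places either. That holds for those that left out an array. The setting without the filter, and the one that left out probe sets by the ending of their name, left these values unchanged. Raising low values could not unseat an ITD613 value above 3.74 and left the Mnt values unchanged. Max has a single probe set, so averaging could not change it. The number of antagonists highest on ITD613 was 4 of 5, but 2 of the 3 that passed the filter when a gene's probe sets were averaged, where Mxd1 and Mxd4 were lost, and 3 of 5 with low values raised to 3.74, where Mxd1 was not apart. Their median difference was 0.28 in that setting. At 1.5-fold in place of 2-fold 1 member, Myc, was set apart on the probe sets that stand for the genes; further probe sets of Mycn and Mxd3 passed it too. The Mycn difference was 0.46 with the mean of probe sets and -0.12 without the ITD78 array. The MYC-induced median ran from -0.41 to -0.35 over 11 settings, with 34 to 36 genes lowest on ITD613. The share of all genes lowest there was 29.4% in the main setting and was not computed for the others. The MYC-repressed median was 0.49 without the filter. Values below 3.74 limit Mxd1 and Mxd4 most. No paired analysis was possible because each construct had 1 array.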

Other observations

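Further groups of genes around MYC were described on the same arrays. Of the 12 MYC coactivator genes that passed the filter, 3 were highest and 4 lowest on ITD613, where 35.7% and 29.4% of all genes were, and the median difference was -0.12. Ruvbl1 and Ruvbl2, which encode the paired ATPases of several chromatin complexes, read 7.45 and 6.19 on ITD613, 7.54 and 6.20 on ITD78, and 7.94 to 8.17 and 6.46 to 6.87 on the other 3 arrays. ITD613 and ITD78 were thus both low for these genes. Ccnt1, the cyclin of the elongation kinase P-TEFb, read 6.44 on ITD613, against 5.96 ± 0.09 on the other 4 (SD, n = 4 arrays).

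Of the 12 MYC protein turnover genes that passed the filter, 4 were highest and 4 lowest on ITD613, with a median difference of 0.01. Among all genes 35.7% were highest and 29.4% lowest there. Usp28, a deubiquitinase gene known to act on MYC, read 4.44 on ITD613, against 4.94 ± 0.12, and Ppp2r1a, a scaffold subunit gene of protein phosphatase 2A, read 9.52, against 10.02 ± 0.08 (SD, n = 4 arrays each). Trim32, a ubiquitin ligase gene, read 4.95 on ITD613, against 4.51 ± 0.27 (SD, n = 4 arrays), and Aurka, the Aurora A kinase gene, read 0.33 higher there than the mean of the others. No difference was tested.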
